A study of Mus musculus with 2 samples.

Results

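The cells described here were epidermal cells with a high joint level of Nupr1, Cp, Gas6, Ccn4 and Sncg among cells that express the basal keratin gene Krt14. Cells with at least 1000 CPM of Krt14 (CPM, the unique molecular identifiers, UMIs, of a gene per 1000000 in a cell) were taken, and each was given a score, the mean of log2(CPM + 10) over the 5 genes. The cells were selected on these measured levels: the 15% with the highest scores over both libraries were kept. They were 459 of 3062 cells at the Krt14 level and of 3686 cells in all, and are called score-high cells. The others at the Krt14 level, 1036 in the library labelled knockout and 1567 in the library labelled wild type, are called other Krt14 cells. The score is continuous, so score-high cells are a range and not a type: 238 cells, 103 of them score-high, lay within 0.25 of the limit of 7.67.

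RNA of single cells from the epidermis of C57BL/6 neonates, taken on postnatal day 1, was measured with a droplet kit that reads the 3′ ends of transcripts. The library labelled knockout came from 9 pooled neonates with floxed Bap1 on both alleles (Bap1 fl/fl) and Rosa26-CreERT2, a recombinase that 4-hydroxytamoxifen (4-OHT) switches on. The library labelled wild type came from 11 pooled neonates with Rosa26-CreERT2 alone. Both cultures received 100 nM 4-OHT for 4 days and grew for 3 more days without it, in medium M254 with a growth supplement made for human melanocytes, before detachment with Accutase. The Rosa26 locus is active in most cell types, so the recombinase was not limited to keratinocytes, and 7 days of culture separate the cells from the skin.

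With 1 library for each genotype there was no spread between replicates, no test was made, and every 95% interval covers counting error only. The 5 genes of the rule and every other gene of the same cells entered the same choice, so all differences from other Krt14 cells are descriptions. Bap1, the gene of a deubiquitinase of histone H2A, had 18.8 CPM in score-high and 19.3 CPM in other Krt14 cells of the library labelled knockout, against 9.97 and 14.3 CPM in those of the library labelled wild type. More Bap1 RNA under the knockout label is opposite in direction to a loss of the gene's RNA, and does not decide whether the label is right. A 3′ tag outside the deleted part would check nothing, and the deleted part is not given in the sources used here. Libraries are therefore named by their labels, and each direction between them rests on those labels.

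Nupr1 encodes a small nuclear protein that many cell types make when nutrients, the endoplasmic reticulum or mitochondria are disturbed. Its promoter is a known target of ATF4, the transcription factor of the integrated stress response. Cp encodes ceruloplasmin, a copper-carrying oxidase of iron, and Gas6 a secreted ligand of the receptor kinases TYRO3, AXL and MERTK. Ccn4 encodes a matricellular protein first found as a target of WNT signalling, and Sncg gamma-synuclein, a cytosolic protein of neurons and some epithelia. Krt14 pairs with Krt5 in the basal layer of the epidermis, where cells divide before they move up and make involucrin and other parts of the cornified envelope.

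The Nupr1 promoter is shown because Nupr1 leads the rule and its promoter holds letters that ATF4 can bind. From the RefSeq table of GRCm38.p6, it is the 250 bases before the gene's start on the minus strand at chr7:126625471-126625720, with the match to TGATGNAAN, searched on both strands, in capitals.
Nupr1 promoter: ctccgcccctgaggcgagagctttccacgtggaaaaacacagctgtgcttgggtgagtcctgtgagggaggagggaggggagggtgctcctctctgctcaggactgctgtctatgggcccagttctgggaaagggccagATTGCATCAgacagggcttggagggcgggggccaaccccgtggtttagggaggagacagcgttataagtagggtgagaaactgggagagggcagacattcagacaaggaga
The match began 111 bases before the start site and read ATTGCATCA, the other strand of TGATGCAAT. Of the 5 genes of the rule, 4 had a promoter in the table, and 1 of these (25%) held the motif in the window of 250 bases before to 50 after the start. So did 9 of 28 genes of an integrated stress response list (32.1%) and 1299 of 32851 promoters of all genes (3.95%). The units differ: a gene counted if any of its promoters matched, while the last share is of single promoters, from 27025 genes. Short windows around the match in 4 of these 9, those whose levels are given further on, are set beside that of Nupr1, with the match in capitals.
Nupr1: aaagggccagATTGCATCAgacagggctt
Atf3: ccttctcgcaCTTGCATCAccaagtccgc
Chac1: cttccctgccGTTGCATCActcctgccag
Asns: cccagccacaTGATGAAACttcccgcacg
Fgf21: agacccccccATTGCATCAtccgtccagg
A match is a description of letters and says nothing on binding in these cells.

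Score-high cells were more frequent under the knockout label. With Clopper-Pearson intervals, 324 of 1360 Krt14 cells labelled knockout were score-high (23.8%, 21.6 to 26.2%), as were 135 of 1702 labelled wild type (7.93%, 6.69 to 9.32%). Over all cells the share was 18.4% (16.6 to 20.3%) for those labelled knockout and 7.01% (5.91 to 8.24%) for those labelled wild type. The intervals treat the cells of 1 library as independent and say nothing of other animals. The limit cut through a continuous range, with a median score of 6.24 over all Krt14 cells and a highest score of 11.2.

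**Figure D1:**
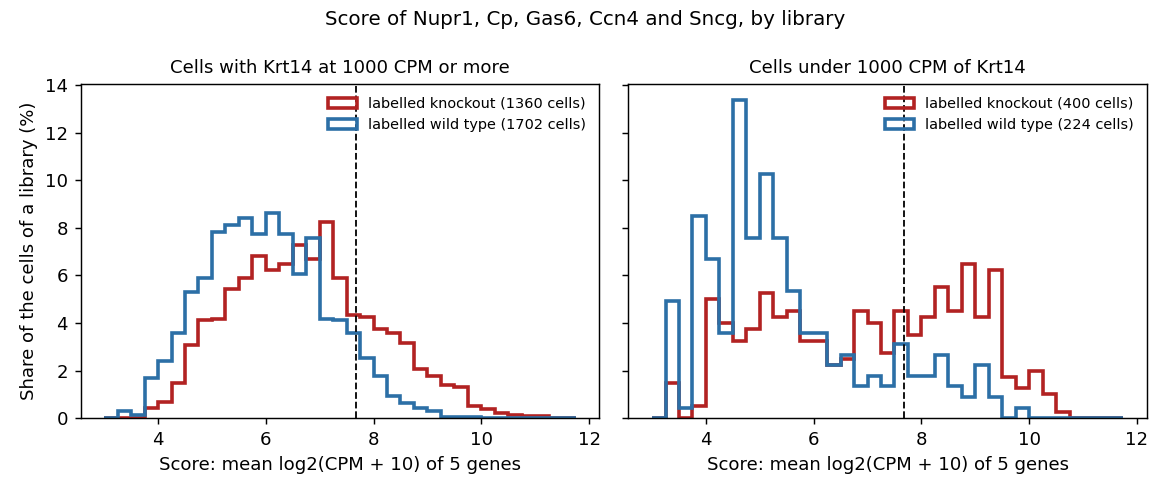
Share of the cells of each library in a panel (vertical axis, percent) by score (horizontal axis, mean log2(CPM + 10) of the 5 genes), with cells at the Krt14 level in one panel and cells under it in the other, and the limit of 7.67 as a dashed line. The library labelled knockout has 23.8% of its Krt14 cells at or over the line and the library labelled wild type 7.93%.

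At the limit the cells differed little from those outside it. The 50 cells just inside, 24 labelled knockout and 26 labelled wild type, had a median of 1256 CPM of Nupr1, 46.5 of Cp, 84.3 of Gas6, 117 of Ccn4, 650.4 of Sncg and 2418 of Krt14. The 50 just outside, 28 labelled knockout and 22 labelled wild type, had 1541, 62.4, 83.0, 137, 268 and 2521 CPM of the same genes. Sncg was the gene with the largest gap across the limit, and Nupr1 was higher outside it.

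The 5 genes of the rule, given as a description since they chose the cells, were higher in score-high than in other Krt14 cells of both libraries. Nupr1 (gene 56312, chromosome 7, 126623246 to 126625470 in GRCm38) had 4377 CPM of summed UMIs in score-high and 1274 CPM in other Krt14 cells labelled knockout, and 3015 and 826 CPM in those labelled wild type. The log2 ratios of score-high over other Krt14 cells were 1.78 (1.76 to 1.80) and 1.87 (1.84 to 1.89). Every score-high cell had a Nupr1 UMI, and the gene spanned 74.9 to 38781 CPM with a median of 3331 among those labelled knockout and 181 to 18024 CPM with a median of 1754 among those labelled wild type. The ranges of score-high and other Krt14 cells overlapped in both libraries, with medians of 642 and 369 CPM in other Krt14 cells labelled knockout and wild type.

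Cp (gene 12870, chromosome 3, 19956933 to 20009750) had the largest ratio. It had 275 CPM in score-high and 21.4 CPM in other Krt14 cells labelled knockout, and 289 and 23.0 CPM in those labelled wild type, log2 ratios of 3.69 and 3.65. The median per cell was 133 CPM in score-high cells labelled knockout and 146 CPM in those labelled wild type, and 0 in other Krt14 cells of both. Cp overlaps Hps3 in the annotation, so its counts are uncertain where the counting could not tell the genes apart. Gas6 (gene 14456, chromosome 8, 13465374 to 13494535), which overlaps Tmem255b, had 199 and 52.5 CPM in score-high and other Krt14 cells labelled knockout, and 123 and 49.8 CPM in those labelled wild type. Its log2 ratio was 1.92 (1.84 to 2.01) labelled knockout and 1.30 (1.19 to 1.42) labelled wild type.

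Ccn4 (gene 22402, chromosome 15, 66891369 to 66923201) had 307 and 102 CPM in score-high and other Krt14 cells labelled knockout, and 150.5 and 63.1 CPM in those labelled wild type. Sncg (gene 20618, chromosome 14, 34370274 to 34374669) had 1407 and 255 CPM, and 1213 and 239 CPM, in the same order of cells. The log2 ratios were 1.59 and 1.25 for Ccn4 and 2.47 and 2.34 for Sncg in the libraries labelled knockout and wild type. Krt14 itself was lower, at 2696 and 5949 CPM in score-high and other Krt14 cells labelled knockout and 3578 and 6108 CPM in those labelled wild type. The score does not hold Krt14, which the rule used as a minimum, and the lowest score-high cell had 1001 CPM.

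**Figure D2:**
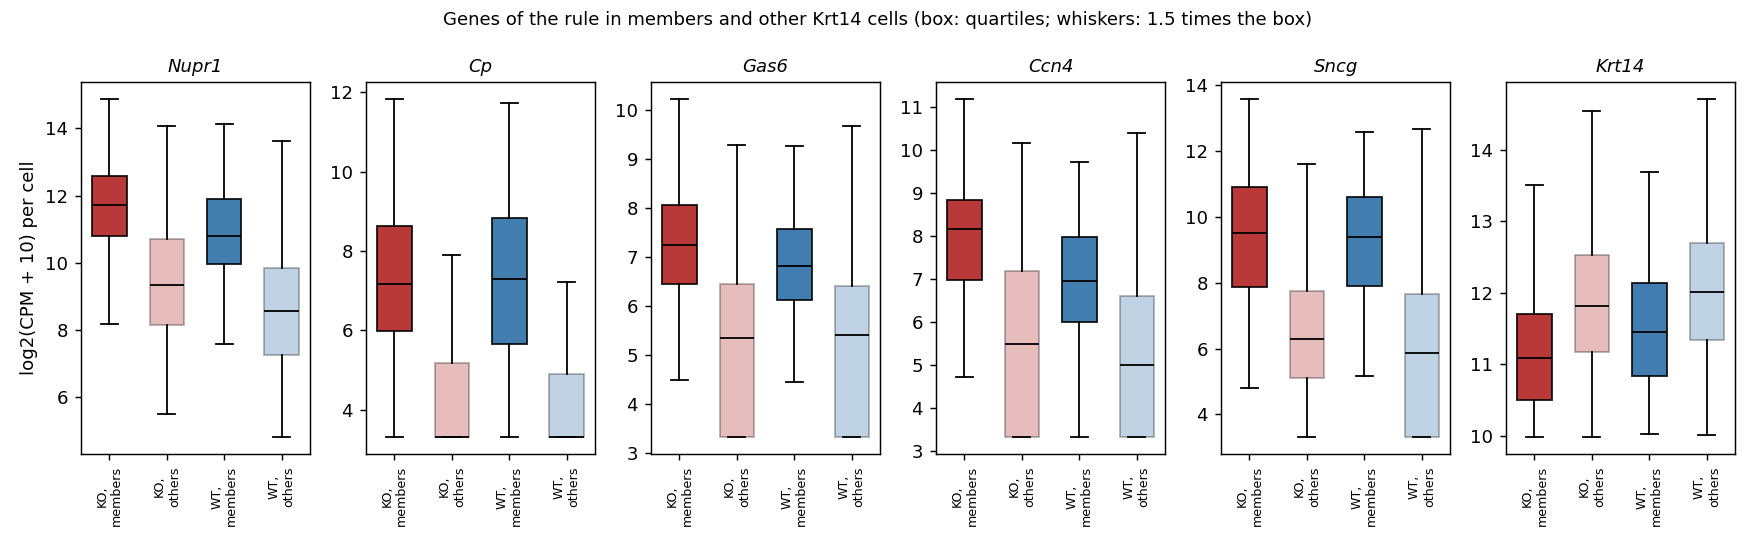
Level per cell (vertical axis, log2(CPM + 10)) of the 5 genes of the rule and of Krt14 in score-high cells (members) and other Krt14 cells of each library. Boxes are quartiles with the median as a line and whiskers reach to 1.5 times the box, with cells beyond them not drawn. The boxes of Nupr1, Cp, Gas6, Ccn4 and Sncg lie higher in members and that of Krt14 lower in both libraries.

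Score-high cells did not all hold the 5 genes together. All 5 were detected in 246 score-high cells labelled knockout (75.9%) and 106 labelled wild type (78.5%), and 4 in each of the rest. In other Krt14 cells the shares with all 5 were 17.8% labelled knockout and 14.1% labelled wild type. With each gene ranked over all Krt14 cells, all 5 genes were in their highest 25% in 44 score-high cells labelled knockout (13.6%) and 1 labelled wild type (0.741%). Across the 1360 Krt14 cells labelled knockout, Spearman's rho between pairs of the 5 genes ran from 0.143 for Ccn4 and Sncg to 0.426 for Nupr1 and Ccn4. It ran from 0.126 for Cp and Ccn4 to 0.291 for Gas6 and Sncg across the 1702 labelled wild type. Cells of a library share its depth and free RNA, so these are descriptions.

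When the score was made from the other 4 genes, the gene left out was still higher in the cells so chosen. Nupr1 was then 3850 and 1456 CPM in chosen and other cells labelled knockout and 2214 and 891 CPM in those labelled wild type. The log2 ratio was 1.40 and 1.31 for Nupr1, 2.77 and 2.11 for Cp and 1.57 and 0.96 for Gas6 in the libraries labelled knockout and wild type. It was lower for Ccn4, at 1.02 and 0.44, and for Sncg, at 1.58 and 0.63. The cells chosen shared 82.5 to 89.8% with the score-high cells in the library labelled knockout and 66.7 to 87.5% in the library labelled wild type. The score-high cells were themselves chosen with earlier results of these data known. With that and this overlap, the ratios are descriptions and no independent check that the genes of the rule go together.

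To set detection at equal depth, every cell was thinned to 8000 UMIs, which left out no cell since the lowest had 8776. Gas6 was then found in 67.3% of score-high and 27.1% of other Krt14 cells labelled knockout, and in 57.0% and 29.7% of those labelled wild type. Without thinning the Gas6 shares were 96.9 and 65.3%, and 97.0 and 68.2%. Ccn4 was found after thinning in 78.1 and 37.6%, and in 57.0 and 28.8%. Cp was found in 65.1 and 12.7%, and in 59.3 and 11.6%. Cells under the Krt14 level with at least 200 CPM of both myeloid genes Tyrobp and Fcer1g numbered 20 labelled knockout and 36 labelled wild type. These myeloid-marker cells are of another type and had a Gas6 UMI in 10.0% and 2.78% after thinning. Their median depths were 16120 and 19443.5 UMIs before thinning, against 34988.5 and 43797 UMIs in score-high cells. Ccn4 was in 15% and 0% of the myeloid-marker cells, where the Clopper-Pearson interval for 0 of 36 cells with a UMI reached 9.74%. Cp was in 60% and 58.3% of them, so a Cp UMI alone is no mark of score-high cells.

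The whole table held 64954113 UMIs in 1760 cells labelled knockout and 77579465 in 1926 labelled wild type. Score-high cells had a median of 34988.5 UMIs against 37898 in other Krt14 cells labelled knockout, and 43797 against 39461 in those labelled wild type. Mitochondrially encoded RNA was a median of 1.26% against 1.04% of the UMIs labelled knockout and 1.32% against 1.26% labelled wild type. A doublet caller marked 3 score-high and 3 other Krt14 cells labelled knockout and 0 and 1 labelled wild type. The libraries shared 3 cell barcodes, none of them a score-high cell.

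Markers of other cell types were compared as summed levels, and their part in the results was not tested. The 8 melanocyte genes summed to 280 CPM in score-high and 314 CPM in other Krt14 cells labelled knockout, and to 296 and 314 CPM in those labelled wild type. The 8 myeloid genes summed to 22.2 and 17.8 CPM, and to 25.7 and 25.2 CPM, and Cd74, with 5.15 and 2.19 CPM labelled wild type, was the 1 of them counted as higher. Of 9 fibroblast genes, Col1a2, Col3a1, Lum and Pdgfrb had 0 UMIs in score-high cells of both libraries, and the sum was 9.81 and 14.0 CPM in those labelled knockout and wild type. The 8 Schwann genes summed to 29.9 and 30.7 CPM in score-high and other Krt14 cells labelled knockout, and to 63.2 and 49.0 CPM in those labelled wild type. The 5 endothelial, 5 Merkel and 4 T cell genes found each summed to under 10 CPM in all of these groups. Of them Thy1, of the T cell list, was lower in both libraries, with 2.49 and 7.24 CPM, and 1.61 and 5.34 CPM, and Krt20, of the Merkel list, was lower labelled knockout, with 1.48 and 3.54 CPM. The 6 skeletal muscle genes, of which the actin gene Acta1 alone reached 100 UMIs, summed to 165 and 694 CPM, and to 36.3 and 204 CPM, with Myod1 and Myf5 at 0 in score-high cells.

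A gene was counted as higher or lower at a ratio of at least 1.5-fold with at least 100 UMIs over both sums compared. By that rule 1075 of 11581 genes (9.28%) were higher and 700 (6.04%) lower in score-high than in other Krt14 cells labelled knockout. In the library labelled wild type 801 of 12468 (6.42%) were higher and 1037 (8.32%) lower. These shares over all genes are the background for the counts in gene lists below. Of the 11481 genes measured in both libraries, 386 (3.36%) were higher in both and 411 (3.58%) lower in both. These 386 were 37.2% of the genes higher labelled knockout and 58.8% of those higher labelled wild type, and the 411 were 60.6% and 53.6% of the lower genes. The median log2 ratio of all genes was 0.15 labelled knockout and 0.07 labelled wild type. Relative to that median the split was 557 higher and 937 lower labelled knockout, 582 and 1189 labelled wild type, and 235 and 521 in both.

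**Figure D3:**
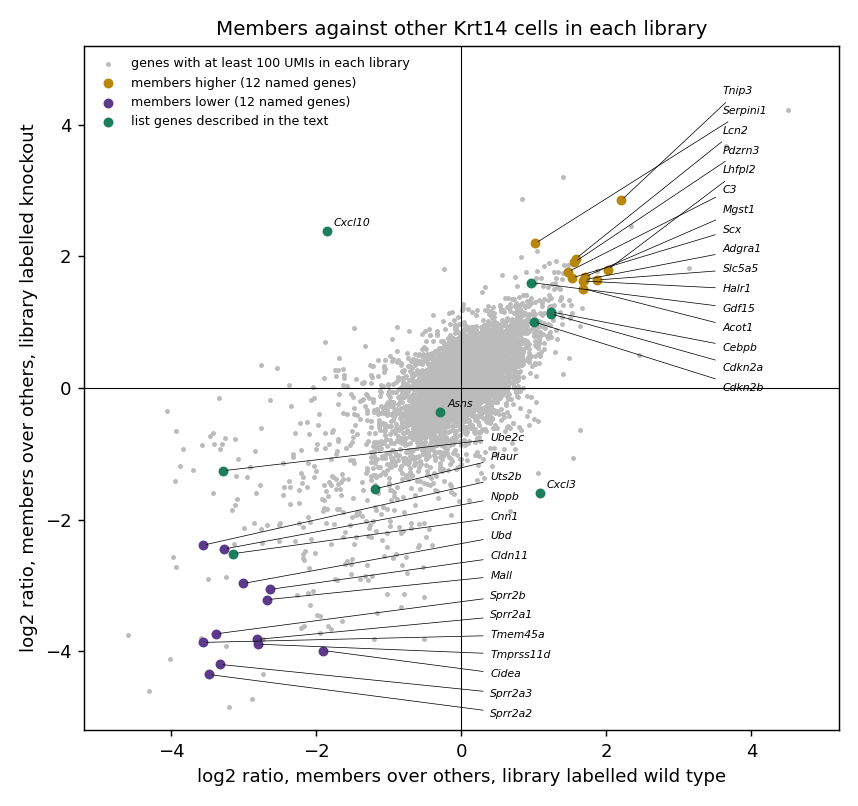
Log2 ratio of score-high over other Krt14 cells for each gene measured, with the library labelled knockout on the vertical and the library labelled wild type on the horizontal axis. Coloured and labelled points are genes described in the text: 12 named as higher in both libraries at the upper right, 12 named as lower in both at the lower left, and genes of the lists, with Cxcl10 and Cxcl3 on opposite sides of 0 in the libraries.

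The 12 genes highest in score-high cells of both libraries, outside the rule, have varied known roles. Tnip3, which encodes an inhibitor of NF-kB signalling, had 12.6 and 1.75 CPM in score-high and other Krt14 cells labelled knockout, and 10.9 and 2.37 CPM in those labelled wild type. The log2 ratios of Tnip3 were 2.85 (2.45 to 3.27) and 2.20 (1.77 to 2.62). Lcn2, the secreted siderophore-binding protein lipocalin 2, had 578 and 148 CPM, and 1349 and 453 CPM. Its median cell had less, 41.7 and 24.4 CPM, and 267 and 66.0 CPM, and its highest score-high cell labelled knockout had 20655 CPM. Its levels were ordered alike in both libraries, yet 1 cell type carried far more: myeloid-marker cells had 27353 CPM labelled knockout and 24184 CPM labelled wild type. The part of free RNA in the Lcn2 values was not tested. C3, the central complement component, had 11.1 and 3.28 CPM, and 24.6 and 8.89 CPM, and overlaps Mir6978.

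Mgst1, a membrane-bound glutathione transferase that detoxifies lipid peroxides, had 289 and 89.6 CPM in score-high and other Krt14 cells labelled knockout, and 381 and 117 CPM in those labelled wild type. Its ratio was nearly the same in both libraries, log2 1.69 (1.62 to 1.76) and 1.70 (1.63 to 1.77). Acot1, an acyl-CoA thioesterase, had 91.3 and 32.0 CPM, and 101 and 31.7 CPM. Slc5a5, the sodium and iodide symporter, had 14.6 and 4.69 CPM, and 18.2 and 4.96 CPM. These genes were about 3-fold higher in score-high cells of each library. Scx, a transcription factor known from tendon, had 68.3 and 21.4 CPM, and 20.9 and 7.27 CPM, and overlaps Bop1. Serpini1, a serine protease inhibitor known from neurons, had 11.5 and 2.51 CPM, and 2.57 and 1.27 CPM. The remaining genes were Lhfpl2 (log2 1.80 labelled knockout and 2.02 labelled wild type), Pdzrn3 (1.91 and 1.56), Adgra1, an adhesion G protein-coupled receptor (1.64 and 1.69), and Halr1, a long non-coding RNA gene at the HoxA cluster (1.63 and 1.67). Pdzrn3 overlaps Gm26911 and Gm33934. Tmem176b, chosen after its values were seen, was abundant, with 1479 and 521 CPM, and 1684 and 696 CPM.

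The genes lowest in score-high cells of both libraries were led by small proline-rich genes of the cornified envelope. Sprr2a3 had 13.7 CPM in score-high and 252 CPM in other Krt14 cells labelled knockout, and 23.6 and 238 CPM in those labelled wild type, log2 ratios of −4.20 and −3.33. Sprr2b had 4.90 and 65.3 CPM, and 5.31 and 55.4 CPM. Sprr2a2 (log2 −4.35 and −3.48) and Sprr2a1 (−3.82 and −2.82) were low throughout. The Sprr2 genes are near-identical copies whose reads could be split between them, so each value is uncertain. Labelled wild type, Sprr2b turned to a log2 ratio of 1.04 when the score was made after thinning to 8000 UMIs, and Sprr2a1 to 0.82 against the score band just below. In cells, the gap was smaller than in sums: 24.1% of score-high and 37.7% of other Krt14 cells labelled knockout had a Sprr2a3 UMI, and 29.6 and 42.4% of those labelled wild type.

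Nppb, the natriuretic peptide B gene, was the most abundant of the other lower genes, with 118 and 645 CPM in score-high and other Krt14 cells labelled knockout, and 83.8 and 813 CPM in those labelled wild type. Mall, a membrane protein of the MAL family, had 7.47 and 69.4 CPM, and 11.4 and 73.1 CPM. Uts2b, which encodes a peptide related to urotensin 2, had 12.6 and 66.0 CPM, and 2.73 and 32.3 CPM. All 3 genes were lower by more than 5-fold in each library. Tmem45a (log2 −3.87 and −3.56), the ubiquitin-like modifier gene Ubd (−2.97 and −3.01), the tight junction gene Cldn11 (−3.06 and −2.63) and the lipid droplet gene Cidea (−3.99 and −1.90) completed the set with Tmprss11d. Tmprss11d, a membrane serine protease gene, had 0.701 and 10.4 CPM labelled knockout, and 0.161 CPM from 1 UMI and 3.37 CPM labelled wild type. Cidea overlaps B430212C06Rik and Tmprss11d overlaps Gm35367, so both values are uncertain. Cldn11 was found in similar shares of cells, 9.26 and 10.3% labelled knockout and 15.6 and 14.7% labelled wild type, so its lower sum came from fewer UMIs in the cells that had it, and against the score band just below its log2 ratio labelled wild type was 0.25.

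The medians of the integrated stress response, unfolded protein, oxidant and heat shock lists lay below those of all genes in both libraries. The cells are therefore called by their genes, and a stress state was not tested. Of 35 integrated stress response genes measured in the library labelled knockout, 2 were higher and 4 lower, with a median log2 ratio of −0.23 against 0.15 for all genes. In the library labelled wild type 4 of 34 were higher and 5 lower, with a median of −0.10 against 0.07. Of all genes 9.28% were higher and 6.04% lower labelled knockout, and 6.42% and 8.32% labelled wild type. Gdf15, a stress-induced cytokine, was higher by its sums. It had 128 and 42.3 CPM in score-high and other Krt14 cells labelled knockout, and 38.3 and 19.6 CPM in those labelled wild type. Its median cell had 30.0 and 0 CPM labelled knockout, and 0 CPM in both groups labelled wild type. Cebpb, a transcription factor, was higher too, with 32.9 and 14.8 CPM, and 31.2 and 13.3 CPM. Ddit4, an inhibitor of mTORC1, had 582 and 390 CPM, and 418 and 243 CPM, and passed 1.5-fold in the library labelled wild type.

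The core of that response differed less or was lower. Atf4 had 243 and 240 CPM in score-high and other Krt14 cells labelled knockout, and 212 and 219 CPM in those labelled wild type. Asns, the asparagine synthetase gene whose window is shown above, had 147 and 189 CPM, and 112 and 137 CPM. Chac1, which breaks down glutathione, had 19.3 and 22.5 CPM, and 12.7 and 15.7 CPM. Neither Asns nor Chac1 passed 1.5-fold. Atf3 was lower in the library labelled knockout, with 17.7 and 31.6 CPM, and had 25.9 and 37.0 CPM labelled wild type. Fgf21, a hormone of the fasting response, had 13.9 and 17.8 CPM, and 8.52 and 4.48 CPM, a log2 ratio of −0.35 labelled knockout and 0.93 labelled wild type. Psat1 and Mthfd2, enzymes of serine and one-carbon metabolism, were lower in both libraries, Psat1 with 17.6 and 31.8 CPM, and 18.2 and 45.4 CPM.

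Other stress lists had few higher genes. Of 19 genes of the unfolded protein response of the endoplasmic reticulum, 0 were higher and 0 lower labelled knockout, and 0 were higher and 2 lower labelled wild type, with a median log2 ratio of −0.15 in both. Hspa5, the chaperone BiP, had 523 and 639 CPM, and 411 and 524 CPM. Of 15 targets of NRF2, the factor of the oxidant response, 1 was higher and 4 lower labelled knockout, and 0 were higher and 0 lower labelled wild type, where over all genes 9.28% were higher and 6.04% lower labelled knockout and 6.42% and 8.32% labelled wild type. The NRF2 medians were −0.25 and −0.05. Nqo1, a quinone reductase and NRF2 target, had 9.89 and 51.4 CPM, and 9.33 and 14.0 CPM. Of 14 heat shock genes 1 was higher and 3 lower labelled knockout, with 0 and 0 labelled wild type. The small heat shock gene Hspb1 had 1256 and 2995 CPM, and 1819 and 2518 CPM. Without replicates a count of 0 says only that no gene passed 1.5-fold.

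Targets of p53 were split. Among all genes measured, 9.28% were higher and 6.04% lower labelled knockout, and 6.42% and 8.32% labelled wild type. Of 22 targets measured labelled knockout, 6 were higher and 2 lower, with a median log2 ratio of 0.37. Labelled wild type, 3 of 22 were higher and 1 lower, with a median of 0.26. Those higher in both were Bbc3, the pro-apoptotic gene of PUMA, with 104 and 58.1 CPM in score-high and other Krt14 cells labelled knockout, and 67.7 and 36.1 CPM in those labelled wild type, Zmat3 (log2 0.62 and 0.59) and Pidd1 (0.86 and 0.72). Cdkn1a, the cell cycle inhibitor p21, had 2698 and 2400 CPM, and 2532 and 1959 CPM, short of 1.5-fold. The kinase gene Plk2 was lower, with 489 and 916 CPM, and 427 and 654 CPM. By the summed level of the list, 29.9% of score-high and 14.7% of other Krt14 cells labelled knockout were in the highest 15% of all Krt14 cells, and 26.7% and 11.1% of those labelled wild type. Across the score the sum was not ordered labelled knockout, with 7092 CPM in the lowest 20% of scores and 6983 CPM in score-high cells, against 5670 and 6434 CPM labelled wild type.

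Inhibitors of the cell cycle at the Cdkn2 loci were higher in score-high cells, though the list they were in was split. Cdkn2a, which encodes p16 and p19Arf, had 319 and 146 CPM in score-high and other Krt14 cells labelled knockout, and 329 and 140 CPM in those labelled wild type. Cdkn2b, which encodes p15, had 498 and 247 CPM, and 556 and 278 CPM. Glb1, the lysosomal beta-galactosidase gene, had 46.0 and 29.2 CPM, and 42.9 and 26.2 CPM. Over all genes 9.28% were higher and 6.04% lower labelled knockout, and 6.42% and 8.32% labelled wild type. In the list of senescence and secreted factors, 5 of 18 were higher and 5 lower labelled knockout. Labelled wild type, 6 of 18 were higher and 4 lower. The lower members were led by Plaur, the urokinase receptor gene, with 249 and 722 CPM, and 296 and 678 CPM, and by Igfbp2, with 31.4 and 116 CPM, and 61.4 and 163 CPM. Of 16 apoptosis genes, set beside the same shares of all genes, 2 were higher labelled knockout and 3 labelled wild type, with 0 lower in both. Bmf and Bid, which encode BH3-only proteins, made up the 2: Bid had 83.0 and 55.0 CPM labelled knockout.

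Around the genes of the rule, the GAS6 receptor genes Axl and Tyro3 differed little, and Pros1 was higher labelled wild type. Axl, a receptor of GAS6, had 84.2 and 78.0 CPM in score-high and other Krt14 cells labelled knockout, and 81.4 and 97.6 CPM in those labelled wild type. Tyro3 had 7.01 and 6.05 CPM, and 4.82 and 6.50 CPM. Mertk was at or under 0.389 CPM in all 4 groups. Axl and Tyro3 stayed within 1.5-fold in both libraries. Pros1, the protein S gene and the other ligand of these receptors, had 1.01 and 1.10 CPM, and 8.20 and 4.10 CPM, a log2 ratio of 1.00 labelled wild type.

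Of 17 genes of iron and copper handling measured labelled knockout, 2 were higher and 0 lower, and of 18 labelled wild type 3 were higher and 1 lower, with Lcn2 and the metallothionein gene Mt1 higher in both. The shares over all genes were 9.28% higher and 6.04% lower labelled knockout, and 6.42% and 8.32% labelled wild type. Mt1, which binds copper and zinc, had 671 and 405 CPM, and 699 and 441 CPM. Slc40a1, the iron exporter ferroportin that works with ceruloplasmin, had 6.31 and 4.33 CPM, and 4.82 and 2.71 CPM. It passed as higher labelled wild type. Tfrc, the transferrin receptor gene, had 6.85 and 7.82 CPM, and 4.02 and 10.6 CPM, and passed as lower labelled wild type. Of the other 5 genes of the CCN family 2 were measured, and both were lower labelled knockout and 1 labelled wild type. Ccn2 had 205 and 456 CPM, and 195 and 396 CPM, and Ccn1 1020 and 1568 CPM, and 1156 and 1677 CPM. Of 10 WNT targets 4 were higher and 1 lower labelled knockout and 2 higher and 2 lower labelled wild type. Axin2, a feedback inhibitor of WNT signalling, was higher in both, with 6.23 and 3.25 CPM, and 10.3 and 3.30 CPM. The 25 genes of autophagy and lysosomes had medians of 0.18 labelled knockout and 0.38 labelled wild type, with 0 and 1 higher and none lower.

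All genes of the interferon response list that passed were higher. Of 13 measured labelled knockout 5 were higher and 0 lower, with a median log2 ratio of 0.42, and of 16 labelled wild type 4 were higher and 0 lower, with a median of 0.52. Irf1, an interferon regulatory factor, had 11.8 and 7.05 CPM in score-high and other Krt14 cells labelled knockout, and 20.7 and 12.8 CPM in those labelled wild type. Tap1, the peptide transporter of antigen presentation, had 14.5 and 8.18 CPM, and 13.7 and 8.20 CPM. Irf1 and Tap1 were higher in both libraries. Chemokines differed between the libraries. Cxcl10, an interferon-induced chemokine outside the interferon list, had 10.4 and 1.98 CPM, and 3.70 and 13.4 CPM. It was thus higher labelled knockout and lower labelled wild type. Cxcl5, which draws neutrophils, was higher in both by its sums, with 330 and 88.0 CPM, and 1025 and 444 CPM. Its median cell had 0 CPM in both groups labelled knockout, and 119 and 39.6 CPM labelled wild type. The highest score-high cell labelled knockout had 13357 CPM of Cxcl5. Ccl2, which draws monocytes, had 442 and 126 CPM, and 96.3 and 113 CPM. Of 17 genes of the inflammatory list 5 were higher and 1 lower labelled knockout and 2 were higher and 2 lower labelled wild type. Among all genes these shares were 9.28% and 6.04% labelled knockout, and 6.42% and 8.32% labelled wild type. Spp1, the secreted phosphoprotein osteopontin, was higher in both, with 177 and 48.8 CPM, and 142 and 53.6 CPM. Its median cell had 41.9 and 17.9 CPM, and 36.6 and 16.8 CPM.

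**Figure D4:**
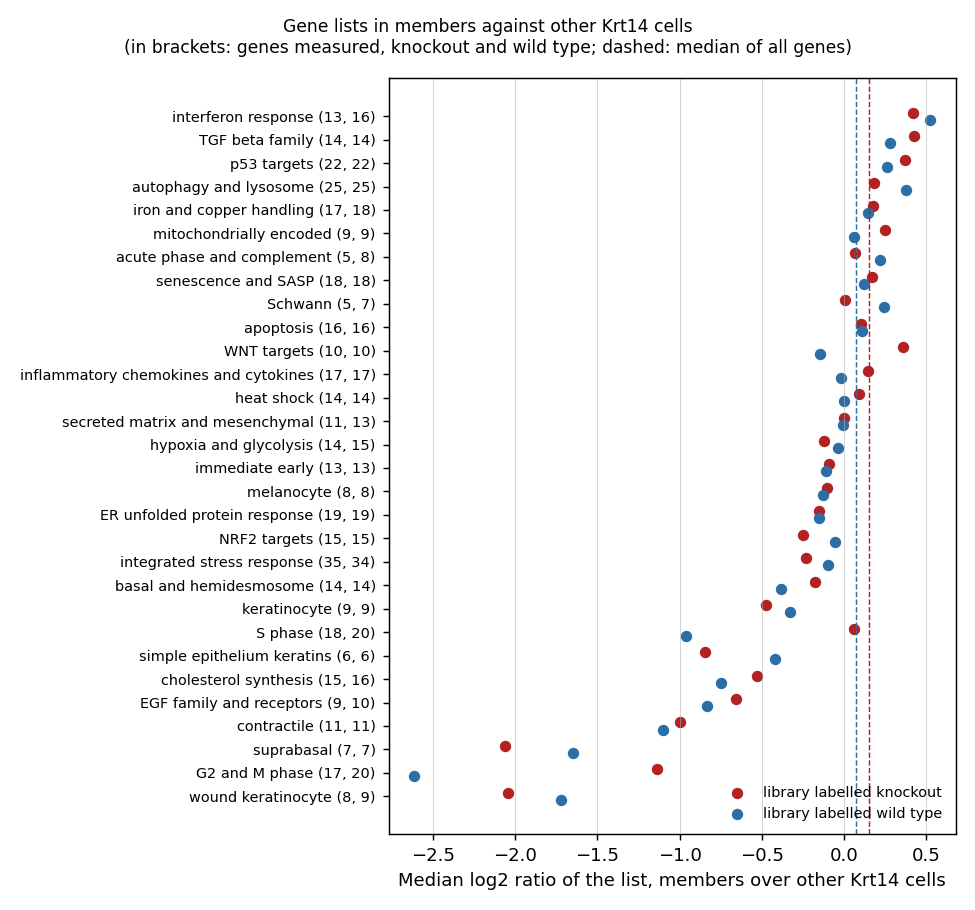
Median log2 ratio of score-high over other Krt14 cells for gene lists with at least 5 genes measured in each library (horizontal axis), with the library labelled knockout and the library labelled wild type as separate points and the number of genes measured in brackets. Dashed lines are the medians of all genes, 0.15 and 0.07. Cell cycle, wound, suprabasal and contractile lists lie to the left in both libraries, apart from S phase labelled knockout at 0.06.

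Genes of wounded and cornifying keratinocytes were lower in score-high cells. Labelled knockout, 7 of 8 wound genes measured were lower and 1 was higher (median −2.04). Labelled wild type, 8 of 9 were lower and 0 higher (median −1.72). Lower genes were 6.04% of all genes labelled knockout and 8.32% labelled wild type, and higher genes 9.28% and 6.42%. Krt6a, a keratin of wounds and hyperproliferation, had 411 and 1600 CPM in score-high and other Krt14 cells labelled knockout, and 353 and 1527 CPM in those labelled wild type. Krt16 had 25.1 and 126 CPM, and 21.4 and 105 CPM. Krt17 had 9790 and 19726 CPM, and 10040 and 18805 CPM, and was lower by about 2-fold labelled knockout and by less labelled wild type. Of 7 suprabasal genes 5 were lower and 0 higher in each library, with medians of −2.06 and −1.65. Ivl, the involucrin gene, had 10.3 and 119 CPM, and 19.9 and 62.5 CPM. Krt10, a keratin of the spinous layer, had 34.1 and 27.0 CPM, and 34.6 and 30.1 CPM, and did not follow. The median cell had much the same suprabasal sum, 138 CPM in score-high and 136 CPM in other Krt14 cells labelled knockout and 91.1 and 104 CPM in those labelled wild type. The highest cell had 3400 and 49898 CPM, and 1304 and 32202 CPM, so the lower sums came with a few cells of very high level among the other Krt14 cells.

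Basal genes were less apart. Krt5, the partner of Krt14, had 392 and 745 CPM in score-high and other Krt14 cells labelled knockout, and 623 and 1124 CPM in those labelled wild type. Of 14 basal and hemidesmosome genes 1 was higher and 2 lower labelled knockout, and 0 were higher and 3 lower labelled wild type. Beside these counts, 9.28% of all genes were higher and 6.04% lower labelled knockout, and 6.42% and 8.32% labelled wild type. The median log2 ratios of that list were −0.17 and −0.38. Trp63, the p63 factor of stratified epithelia, had 10.4 and 15.4 CPM, and 16.1 and 27.5 CPM. Epcam, an adhesion molecule, had 2308 and 1966 CPM, and 2722 and 2115 CPM, against the direction of the keratinocyte list. Of 9 keratinocyte genes, with Krt14 left out, 0 were higher in either library, 1 was lower labelled knockout and 2 labelled wild type. The list's median log2 ratios were −0.48 and −0.33, against 0.15 and 0.07 for all genes.

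Contractile genes and, mainly labelled knockout, keratins of simple epithelia were among the lower genes. Of 11 contractile genes 6 were lower labelled knockout and 8 labelled wild type, with 0 higher and medians of −0.997 and −1.10. Lower genes were 6.04% of all genes labelled knockout and 8.32% labelled wild type, and higher genes 9.28% and 6.42%. Acta2, the smooth muscle actin, had 1696 and 3386 CPM in score-high and other Krt14 cells labelled knockout, and 298 and 1484 CPM in those labelled wild type. Cnn1, the calponin gene, had 18.9 and 108 CPM, and 7.72 and 68.2 CPM. By the summed contractile level, 4.63% of score-high and 24.3% of other Krt14 cells labelled knockout were in the highest 15% of Krt14 cells, and 0% (0 of 135) and 12.3% of those labelled wild type. Of 6 simple epithelium keratins 4 were lower labelled knockout and 2 labelled wild type, with 0 higher and medians of −0.84 and −0.42. Krt18 had 4510 and 8684 CPM, and 2980 and 4710 CPM. Krt19, another keratin of simple epithelia, had 85.4 and 242 CPM, and 52.4 and 230 CPM.

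Genes of G2 and M phase had lower sums in score-high cells of both libraries. Of 17 measured labelled knockout 15 were lower and 0 higher (median −1.14), and of 20 labelled wild type 20 were lower, with a median of −2.61. Lower genes were 6.04% of all genes labelled knockout and 8.32% labelled wild type, and higher genes 9.28% and 6.42%. Ube2c, an enzyme of mitotic protein destruction, had 20.1 and 48.0 CPM in score-high and other Krt14 cells labelled knockout, and 16.4 and 160 CPM in those labelled wild type. Ube2c thus differed more between the other Krt14 cells of the libraries than between their score-high cells. The median cell had much the same G2 and M sum, 36.1 CPM in score-high and 35.1 CPM in other Krt14 cells labelled knockout, and 69.4 and 77.4 CPM in those labelled wild type. The list's median ratio labelled knockout was −0.35 when the score was made after thinning. S phase genes split the libraries. Labelled knockout, 1 of 18 was higher and 1 lower, with a median of 0.06. Labelled wild type, 15 of 20 were lower and 0 higher (median −0.96.) Mcm6, a subunit of the replicative helicase, had 26.6 and 30.7 CPM, and 10.3 and 23.9 CPM.

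Cholesterol synthesis genes and the EGF family held many lower genes. Of 15 cholesterol genes measured labelled knockout 7 were lower, and of 16 labelled wild type 13 were lower, with 0 higher and medians of −0.53 and −0.75. Sqle, the squalene epoxidase gene, had 42.3 and 84.1 CPM in score-high and other Krt14 cells labelled knockout, and 43.6 and 86.8 CPM in those labelled wild type. Sqle was close to 2-fold lower in each library. Of the EGF family and its receptors, 6 of 9 were lower labelled knockout and 6 of 10 labelled wild type, with 0 higher. Hbegf, a ligand, had 111 and 255 CPM, and 59.0 and 129 CPM, and Egfr, the receptor, 17.3 and 29.0 CPM, and 18.0 and 29.1 CPM. Of 14 TGF beta family genes 3 were higher and 2 lower labelled knockout, and 4 higher and 1 lower labelled wild type. The shares of all genes higher and lower were 9.28% and 6.04% labelled knockout, and 6.42% and 8.32% labelled wild type. Inhbb, an activin subunit, had 43.2 and 23.7 CPM, and 29.6 and 19.2 CPM, and Id2, an inhibitor of transcription factors, 30.9 and 95.8 CPM, and 26.4 and 94.2 CPM.

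Across the range of the score some genes changed level at each step and others did not. In bands of Krt14 cells from the lowest 20% of scores over 20 to 40%, 40 to 60% and 60 to 85% to the score-high cells, Mgst1 had 31.8, 53.3, 80.1, 138 and 289 CPM labelled knockout, and 50.6, 80.0, 123, 214 and 381 CPM labelled wild type. Krt14, which is not in the score, had 11840, 6350, 4926, 4153 and 2696 CPM, and 9155, 6378, 4803, 4238 and 3578 CPM. Mgst1 was higher and Krt14 lower at each step in both libraries. The 35 integrated stress response genes summed to 2688, 3292, 3663, 3673 and 3406 CPM, and to 2552, 2870, 3039, 2843 and 2884 CPM, with no higher level at the top than in the band below labelled knockout. The 20 G2 and M phase genes summed to 44.6, 187, 277, 226 and 102 CPM labelled knockout, highest in the middle, and to 759, 991, 588, 346 and 109 CPM labelled wild type. Nppb had 769, 909, 692, 418 and 118 CPM, and 1121, 1097, 720.3, 319 and 83.8 CPM.

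**Figure D5:**
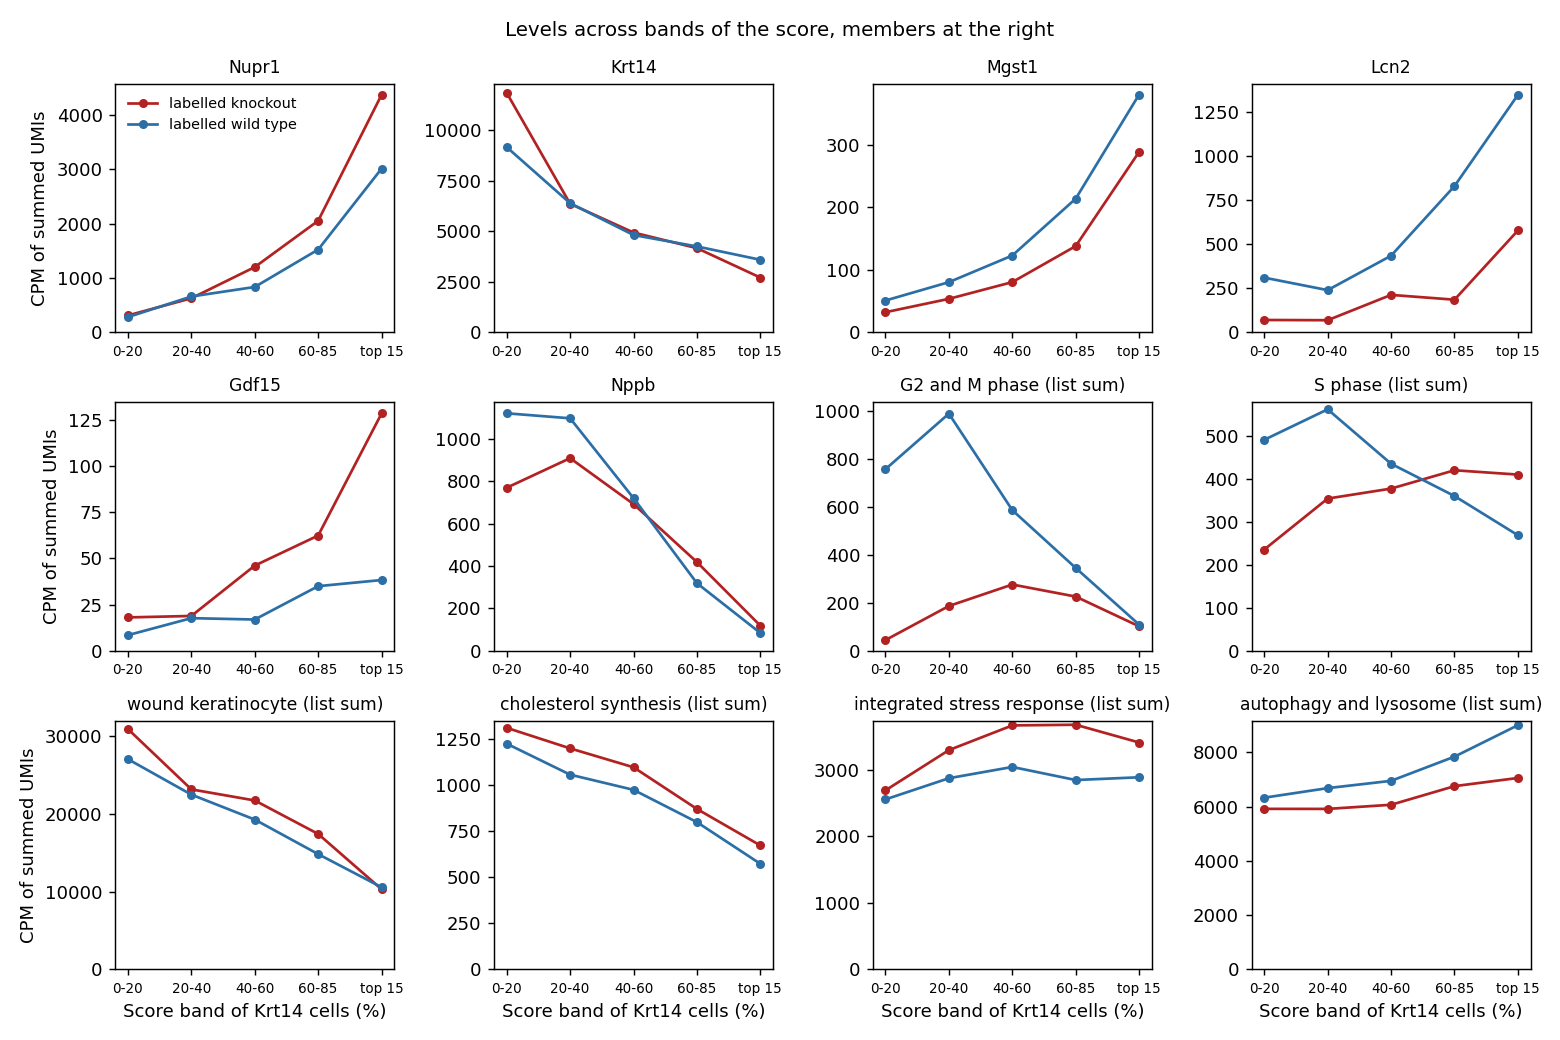
CPM of summed UMIs (vertical axes, from 0) in bands of the score of Krt14 cells (horizontal axes, percent, score-high cells at the right), for single genes and for sums of lists, with a line for each library. Nupr1 was used in the score; Mgst1 is higher and Krt14 lower at each step in both libraries.

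The score-high cells of the 2 libraries also differed from each other. Of 9785 genes measured, 612 (6.25%) were at least 1.5-fold higher and 819 (8.37%) lower in score-high cells labelled knockout than in those labelled wild type, or 487 and 939 relative to the median of 0.05. Among other Krt14 cells 563 of 13089 (4.3%) were higher and 1928 (14.7%) lower. Of the genes of the rule, Ccn4 and Gas6 were higher labelled knockout, with 307 and 150.5 CPM for Ccn4 (log2 1.03, 0.92 to 1.13) and 199 and 123 CPM for Gas6 (log2 0.70, 0.58 to 0.82). Nupr1 differed by 0.54, Sncg by 0.21 and Cp by −0.07 on the log2 scale. Gas6 had 52.5 and 49.8 CPM in other Krt14 cells, a log2 ratio of 0.08 (−0.0015 to 0.155), and 217 and 80.0 CPM in cells under the Krt14 level. Ccn4 differed by 0.70 in other Krt14 cells. Both genes chose the cells, so these are descriptions.

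The genes highest in score-high cells labelled knockout over those labelled wild type were mostly high in other Krt14 cells of the same library as well. Esr1, the estrogen receptor alpha gene, had 23.3 CPM in score-high cells labelled knockout and 0.643 CPM, from 4 UMIs, in those labelled wild type, and 21.1 and 1.39 CPM in other Krt14 cells. The log2 ratios of Esr1 were 5.18 and 3.92. Cnih2, an auxiliary subunit of glutamate receptors that overlaps Yif1a, had 14.2 and 0.804 CPM, and 6.17 and 0.318 CPM. Gfra2, a neurturin receptor gene that overlaps Gm34588, had 7.71 and 0.482 CPM, the second from 3 UMIs, a log2 ratio of 4.00 (2.41 to 6.30). Acta2 had 1696 and 298 CPM, and 3386 and 1484 CPM. So Acta2 was higher labelled knockout in both kinds of cells, with log2 ratios of 2.51 and 1.19. Fbn1, the fibrillin gene of elastic microfibrils, had 9.96 and 1.61 CPM, and 3.25 and 1.22 CPM. The others were Myl9 (log2 2.79), Mia (2.58), Col27a1 (2.53, which overlaps Mir455), Foxl2 (2.51) and Scarf2 (2.46).

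Among the genes lowest labelled knockout were enzymes of small molecule metabolism. Gstk1, a glutathione transferase, had 6.69 CPM in score-high cells labelled knockout and 45.5 CPM in those labelled wild type, and 5.07 and 33.9 CPM in other Krt14 cells. Khk, the ketohexokinase of fructose metabolism, had 3.89 and 22.3 CPM, and 2.89 and 18.1 CPM. Smpdl3a, a lysosomal phosphodiesterase, had 10.3 and 62.2 CPM, and 20.7 and 54.6 CPM. The differences of Gstk1 and Khk were close in both kinds of cells, log2 −2.76 and −2.74 for Gstk1. Mir147 had the lowest ratio, with 8.80 and 125 CPM, and 16.7 and 74.5 CPM, but overlaps AA467197, whose 3′ reads cannot be told from it, so the miRNA itself was not measured. Dnajc12 (log2 −3.05), Lrp11 (−3.00), Tmem139 (−2.99), Fggy (−2.71), Gchfr, a regulator of tetrahydrobiopterin synthesis (−2.62), and Cpq (−2.52, which overlaps 1700084J12Rik and 4930592A05Rik) were the rest.

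The lists were also compared between the score-high cells of the libraries, where 6.25% of all genes were higher and 8.37% lower labelled knockout. Between other Krt14 cells of the libraries 4.3% of all genes were higher and 14.7% lower labelled knockout. The simple keratin median was 0.60, with 3 of 5 genes higher, and turned to −0.30 when Sncg was left out of the score. Of 10 contractile genes 6 were higher and 0 lower, with a median of 0.96 that was 0.30 when 15% were chosen within each library, and of 16 S phase genes 9 were higher and 0 lower, with a median of 0.65. In other Krt14 cells the S phase median was −0.46, with 6 of 20 lower and 0 higher. Mcm2, a helicase subunit, had 21.2 and 9.49 CPM in score-high cells labelled knockout and wild type, and 17.6 and 15.4 CPM in other Krt14 cells. For the interferon response, 5 of 11 genes were lower and 0 higher (median −0.57), and in other Krt14 cells 12 of 16 were lower. Bst2, an antiviral membrane protein, had 222 and 372 CPM, and 149 and 249 CPM. Of 17 inflammatory genes 7 were lower and 3 higher. Ccl2 was among those higher, with 442 and 96.3 CPM in score-high cells and 126 and 113 CPM in other Krt14 cells. Of 11 secreted matrix genes 4 were higher and 1 lower, among the higher Fn1, the fibronectin gene, at 1033 and 299 CPM, and 1035 and 355 CPM, and Tnc, tenascin C, at 971 and 299 CPM, and 671 and 300.4 CPM.

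The Krt14 minimum left many cells of the same score outside. Of 400 cells under it labelled knockout, 170 (42.5%, 37.6 to 47.5%) reached the score limit, as did 29 of 224 labelled wild type (12.9%, 8.84 to 18.1%). Krt14 was between 500 and 1000 CPM in 105 (61.8%) of the 170 and in 23 (79.3%) of the 29. With no Krt14 minimum, 494 cells labelled knockout (28.1% of 1760) and 164 labelled wild type (8.52% of 1926) reached the limit.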

How the data were processed

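The labels describe 1 droplet 3′ single-cell RNA library for each genotype. The authors deposited UMI counts per gene and cell, and the submitters' processing notes name mm10, Cell Ranger 2.1 and Seurat 2.0 without their roles. Whether intronic or antisense reads were counted, and how cells were called, is not given in the sources used here. Symbols from RefSeq (GRCm38.p6) were found for 31049 of the 36528 gene numbers, and the rest, with 2.67% of the UMIs, stayed in the totals. No cell was removed. Scrublet, at an expected rate of 0.02, marked 7 cells labelled knockout and 1 labelled wild type, and these stayed in place.

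Counts were summed over cells and scaled to CPM. Intervals are at 95%, conditional and exact for log2 ratios and Clopper-Pearson for shares. UMIs limit amplification copies but not variation between cells, so intervals cover counting error only. Against 0 or few UMIs a floor of 3 was used. Genes were measured with at least 100 UMIs over both sums and called at 1.5-fold. The script was tested on simulated counts. The named genes were the 12 highest and 12 lowest by the mean ratio of both libraries among those called the same way in both, and the 10 highest and 10 lowest between score-high cells. Left out by name were 971 genes measured in both libraries, called or not (genes of the rule, Krt14, sex chromosome genes, haemoglobins and number-only models). Also left out were 29 genes called the same way in both and at 10 times the level under the Krt14 minimum. So were genes with over 25% of the UMIs of the higher of the sums compared in 1 cell. Gene lists numbered 40. The members, lists and examples were chosen with earlier results of these data known. Alternatives varied the Krt14 minimum, the share chosen, the score, cell filters, weighting, UMI minimum and fold. Added after seeing the data were the score band just below as comparison, centring on the median, and no Krt14 minimum. Python 3.11.15, numpy 2.4.6, scipy 1.17.1, pandas 2.3.3, scanpy 1.11.5 and matplotlib 3.10.9 were used.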

Additional observations from a re-analysis of the deposited data

Results flagged for a closer look

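Some genes moved in opposite directions in the libraries between score-high and other Krt14 cells. The difference between the libraries was not tested, since each has 1 sample, and its cause was not tested. Cxcl10, an interferon-induced chemokine, had 10.4 and 1.98 CPM in score-high and other Krt14 cells labelled knockout, and 3.70 and 13.4 CPM in those labelled wild type, so its log2 ratio was 4.24 higher labelled knockout. S100a9, a calprotectin subunit, had 33.2 and 17.6 CPM, and 13.7 and 38.0 CPM, a gap of 2.39. Cxcl3, a chemokine for neutrophils, had 7.63 and 23.1 CPM, and 92.5 and 43.7 CPM, a gap of −2.68. Mmp13, a collagenase, had 4.67 and 7.27 CPM, and 12.4 and 3.99 CPM, a gap of −2.27. Mir147, which cannot be told from AA467197, had a gap of −1.67. These were among 7 genes higher labelled knockout and lower labelled wild type and 11 the other way.

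Cells that the Krt14 minimum left out of the comparisons were marked by the score as well. Of those labelled knockout 42.5% reached the limit, against 12.9% labelled wild type. Depth moved with the Krt14 minimum, with medians of 21337 UMIs labelled knockout and 15774.5 UMIs labelled wild type under it, and its part in these shares was not tested.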

How the results depend on the processing

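No paired analysis was possible because each genotype has 1 library, and for the same reason no replicate could be left out. The share of score-high cells was higher labelled knockout under each alternative but the choice of 15% within each library, which sets both shares at 15%. The shares labelled knockout and wild type were 17.8 and 3.76% for the highest 10% and 29.9 and 12% for the highest 20%. The share labelled wild type was 6.57% with Krt14 at 500 CPM and 9.89% at 2000 CPM, and the share labelled knockout 28.1% with no Krt14 minimum.

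Counts moved with what defines a call. At a minimum of 20 UMIs, 1899 genes were higher and 1299 lower labelled knockout, 1748 higher labelled wild type, 697 higher in both, and 1197 higher and 1664 lower between score-high cells. At 2-fold they were 217 and 379, 162 and 533, 74 and 200 in both, and 169 and 321 between score-high cells. Against the score band just below they were 379 and 277, 140 and 305, and 59 and 118 in both. With the highest 10%, 1389 were higher labelled wild type, and relative to the median 557 were higher labelled knockout and 235 in both.

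All medians here are log2. The G2 and M phase median labelled wild type was −1.70 with Krt14 at 2000 CPM, −2.00 with the highest 20%, −1.20 with 15% within each library, −1.96 with pseudocount 1, −1.52 without Gas6 in the score and −1.60 against the band below. Between score-high cells it was 0.04 as reported by the same rule over 7 genes, and −0.66, −0.80, −1.57, −0.73 and −0.90 under the first 5 of these. Labelled knockout it was −0.35 after thinning and −0.37 as a mean over cells. The wound median labelled wild type was −0.53 after thinning, −1.02 without Cp and −1.12 against the band below, where it was −0.71 labelled knockout, and after thinning it was −1.12 between score-high cells. The suprabasal median labelled wild type was −1.02 with the highest 10%, −0.68 after thinning, −0.97 without Nupr1 and −0.12 against the band below, and labelled knockout −1.47 without Ccn4 and −1.07 against the band below. Without Sncg the contractile median labelled wild type was −1.88, and the simple keratin median between score-high cells turned to −0.30. The contractile median between score-high cells was 0.30 with 15% within each library, and the EGF family median 1.09 with the highest 10%. Labelled wild type, Sprr2b turned to 1.04 after thinning, and Sprr2a1 to 0.82 and Cldn11 to 0.25 against the band below. Of all list medians recomputed, 822 stayed within 1.5-fold, 27 moved further and 1 that had passed 1.5-fold changed sign. The sign changes of the G2 and M median between score-high cells, which had not passed, are among the 27. Of gene ratios 910 stayed within their interval, 292 moved and 3 that had passed changed sign. The causes were not tested.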
